A study of Homo sapiens with 27 samples.

Results

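Translational efficiency (TE) is the number of ribosome footprints on a gene per unit of its mRNA. It was compared between macrophage-like THP-1 cells given lipopolysaccharide together with dexamethasone and the same cells given lipopolysaccharide alone. All genes that were well counted in both assays were taken, which left 11944 of the 20453 genes in the deposited tables. Each gene was tested for a footprint change that differed from its mRNA change.

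THP-1 is an established human monocytic leukaemia line, which was assayed by ribosome profiling (sequencing of the mRNA pieces that ribosomes shield from nuclease) and by RNA-seq of poly(A) RNA. Every group shared a differentiation step of 24 h in 10 ng/ml of the phorbol ester PMA, which makes the cells adherent and macrophage-like. The LPS+Dex group then received 100 ng/ml of lipopolysaccharide (LPS, a bacterial ligand of Toll-like receptors) and 1 µM of dexamethasone for 3 h, the LPS group received the same LPS alone for 3 h, and a vehicle group received ethanol in PBS for 3 h. Each group had 5 footprint libraries and 4 mRNA libraries, and the vehicle libraries entered the fit to share its estimate of spread. Dexamethasone was not given without LPS, so its effect was measured on top of LPS only, and all libraries come from 1 leukaemia line.

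Dexamethasone is a synthetic glucocorticoid that binds the glucocorticoid receptor, a transcription factor which switches on anti-inflammatory genes and holds back cytokine genes. How much protein a cell makes from an mRNA also depends on how often ribosomes start on it. A gene whose mRNA and footprints move together is changed at the level of mRNA, and a footprint change without an mRNA change marks a change in ribosome load. An mRNA change that the footprints do not follow is termed buffered.

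Footprint libraries held 11.5 to 24.4 M counts (LPS+Dex), 20.8 to 26.1 M counts (LPS) and 15.4 to 24.3 M counts (vehicle). Libraries of mRNA held 19 to 21.7 M counts (LPS+Dex), 20.9 to 24.9 M counts (LPS) and 21.8 to 30.7 M counts (vehicle). All 16 macrophage markers averaged at least 1 CPM (counts per 1 M counts of the library) in both assays. Of 16 markers of other cell types 5 reached that level (GNLY, ALB, VWF, COL1A1 and NKG7), while EPCAM, HBB, MS4A1 and HBA1 had no mRNA count in any library. The summed level of these 16 markers was 60.7 to 79.4 CPM with LPS+Dex and 34.5 to 47.9 CPM with LPS in mRNA, and 32.1 to 102 CPM against 25.1 to 80.6 CPM in footprints. The footprint libraries numbered 4 stood apart from the others of their group in every treatment. Transcripts of heart muscle, which a monocytic line should lack, were seen in the footprints of LPS replicate 1, as given below. Results that rest on these libraries are given with and without them.

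Most genes changed in footprints as they changed in mRNA. The TE change lay within 0.5 of 0 on the log2 scale for 10836 genes (90.7%), and 171 genes exceeded 1 in either direction. Its median was 0.04, with 5% of genes below -0.41 and 5% above 0.54. Across genes, which are not independent replicates, the log2 fold changes of footprints and of mRNA correlated with r = 0.858. In mRNA 1976 genes were higher (16.5% of those tested) and 1992 lower (16.7%) at an adjusted p under 0.05 in edgeR's quasi-likelihood test, and in footprints 1097 were higher (9.18%) and 967 lower (8.1%). Of 1649 genes that passed in both assays, 1648 moved in the same direction. TE passed the same threshold for 9 genes, 7 higher and 2 lower, which is 0.0754% of those tested. Without adjustment, TE had a p under 0.05 for 399 genes on the higher side (3.34%) and 247 on the lower side (2.07%).

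**Figure D1:**
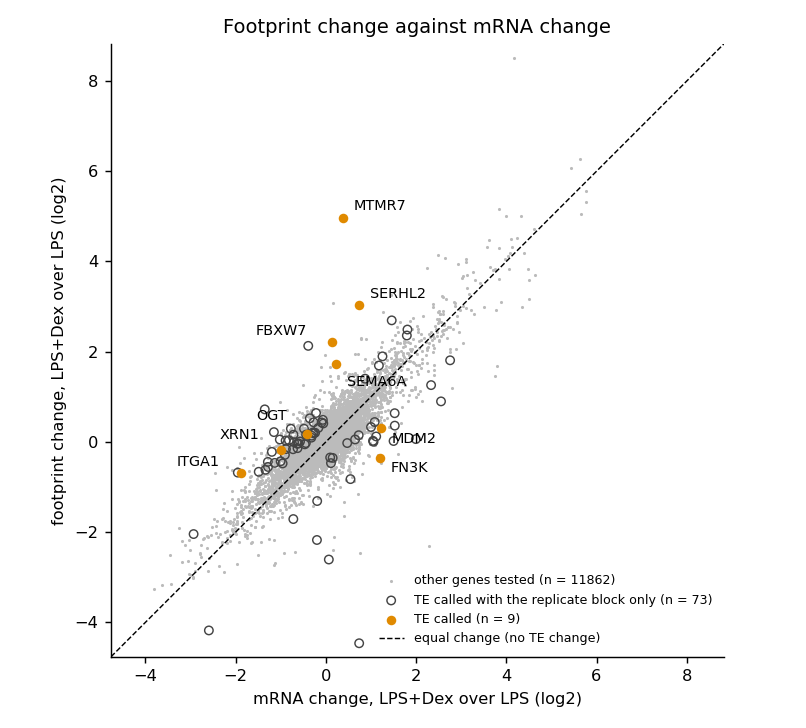
Log2 fold change of footprints (y axis) against that of mRNA (x axis), LPS+Dex over LPS, with 1 point per gene for 11944 genes. Genes off the dashed line of equal change have a TE change. Filled orange points are the 9 genes called in TE and open circles those called only when replicate number was a term of the fit. Most genes lie along the line, and MTMR7, SERHL2, FBXW7 and SEMA6A lie above it.

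The genes were sorted by the level at which they passed. In 1645 genes, termed forwarded, mRNA and footprints both passed with equal sign while TE did not. Exclusive genes, with a TE and a footprint call but no mRNA call, were FBXW7, MTMR7 and SEMA6A. SERHL2 was intensified, with a TE change on top of an mRNA change of the same sign. Buffered genes, with TE and mRNA changes of opposite sign, were ITGA1, XRN1, OGT, MDM2 and FN3K.

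FBXW7 is the substrate receptor of an SCF ubiquitin ligase that sends MYC, cyclin E and NOTCH proteins to the proteasome (ENSG00000109670, chromosome 4, 152320544 to 152536092, GRCh38.p14). Its footprints stood at 10.4, 10.9, 11.4, 23.7 and 8.2 CPM in the 5 LPS+Dex libraries, against 2.01, 2.2, 2.38, 4.96 and 2.48 CPM in the 5 LPS libraries. Every LPS+Dex library was above every LPS library, and replicate 4 was the highest of its group in both. FBXW7 mRNA was 39.2, 43.6, 43.2 and 36.2 CPM with LPS+Dex and 39.7, 31.5, 37.1 and 39.5 CPM with LPS, and these groups overlapped. The footprint change was 2.21 (adjusted p = 7.2e-05), the mRNA change 0.13 (adjusted p = 0.3) and the TE change 2.09 ± 0.32 (log2 ± SE, adjusted p = 0.0031). With vehicle, FBXW7 footprints were 1.38 to 1.9 CPM and its mRNA 26.3 to 32.1 CPM. The 18 LPS+Dex and LPS libraries fitted without the vehicle libraries gave FBXW7 an adjusted TE p of 0.059.

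The other 3 genes with more footprints per mRNA had under 5 CPM of footprints and were named after their values were seen. MTMR7, a phosphatase of the myotubularin family that acts on phosphoinositide lipids (ENSG00000003987, chromosome 8, 17296794 to 17413351), had 48, 73, 27, 43 and 28 footprint counts in the LPS+Dex libraries. The LPS libraries held 2, 1, 1, 3 and 0 counts of MTMR7, and the 5 vehicle libraries held 0. In CPM its footprints were 1.92, 2.91, 2.24, 2.94 and 1.39 with LPS+Dex and 0.0854, 0.0501, 0.0449, 0.196 and 0 with LPS. MTMR7 footprints were thus near 0 in every library without dexamethasone, whereas its mRNA was counted in all of them. MTMR7 mRNA stood at 7.13, 7.79, 7.29 and 8.27 CPM with LPS+Dex, at 6.72, 5.53, 4.23 and 7.01 CPM with LPS, and at 5.06 to 7.36 CPM with vehicle. The TE change was 4.63 ± 0.47 (adjusted p = 3.3e-05), from a footprint change of 4.97 and an mRNA change of 0.37 (adjusted p = 0.086). MTMR7 overlaps the gene VPS37A and a long noncoding RNA gene, and whether the counts used strand is not given in the sources used here, so reads of overlapping genes may be mixed in it.

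SERHL2, a serine hydrolase-like protein (ENSG00000183569, chromosome 22, 42553956 to 42574382), had footprints of 1.8, 2.35, 2.24, 3.01 and 2.73 CPM with LPS+Dex and 0.256, 0.501, 0.314, 0.13 and 0.236 CPM with LPS, with no overlap. Its mRNA was 7.08, 8.08, 6.43 and 7.34 CPM with LPS+Dex and 4.2, 3.71, 4.46 and 5.07 CPM with LPS, again with no overlap. Both rose, footprints by 3.03 and mRNA by 0.73 (adjusted p = 0.00097), and TE by 2.30 ± 0.31 (adjusted p = 0.00063). SERHL2 has a near-identical pseudogene copy, SERHL, on the same chromosome, so the split of reads between them is uncertain.

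SEMA6A is a membrane-bound semaphorin, a guidance cue for growing axons and vessels (ENSG00000092421, chromosome 5, 116443555 to 116574823). SEMA6A footprints were 2.16, 1.91, 2.99, 3.63 and 3.68 CPM with LPS+Dex, against 0.598, 1, 0.718, 1.24 and 0.826 CPM with LPS. Every LPS+Dex library exceeded every LPS library. In mRNA the 10.7, 12.5, 11.9 and 13.9 CPM with LPS+Dex overlapped the 10.4, 10, 10.1 and 11.2 CPM with LPS. The TE change of SEMA6A was 1.49 ± 0.25 (adjusted p = 0.011), with a footprint change of 1.72 and an mRNA change of 0.23 (adjusted p = 0.13). Vehicle footprints of SEMA6A, at 0.145 to 0.225 CPM, were below those of both other groups. Fitted without the vehicle libraries, its adjusted TE p was 0.079. FBXW7, MTMR7, SERHL2 and SEMA6A passed in each of 27 fits that left out 1 library.

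The 5 buffered genes passed less firmly, each losing its call in more than 10 of those 27 fits. ITGA1, the alpha chain of a collagen-binding integrin (ENSG00000213949, chromosome 5, 52787916 to 52959209), fell in both assays, but less in footprints. Its mRNA was 30, 25.8, 30.6 and 25.4 CPM with LPS+Dex and 99.4, 90.1, 117 and 102 CPM with LPS. ITGA1 footprints were 52.7, 54.9, 50.5, 45.6 and 65.2 CPM with LPS+Dex and 83.7, 94, 90.4, 72 and 93.5 CPM with LPS. The groups were separate in both assays. The mRNA change was -1.87 (adjusted p = 2.8e-06) and the footprint change -0.69 (adjusted p = 0.0026), which gave a TE change of 1.18 ± 0.23 (adjusted p = 0.047). ITGA1 kept its call in 5 of the 27 fits, with adjusted p between 0.024 and 0.17. The gene PELO lies within ITGA1, and reads of the 2 genes may be mixed.

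XRN1, the cytoplasmic exonuclease that degrades decapped mRNAs (ENSG00000114127, chromosome 3, 142306610 to 142448037), had mRNA of 27.6, 27.4, 31.8 and 25.5 CPM with LPS+Dex and 56.1, 47.4, 60.4 and 59.7 CPM with LPS. The XRN1 footprint libraries overlapped, with 52.6, 52.9, 47.6, 47.3 and 59.1 CPM against 60.1, 62.6, 62.9, 55.8 and 51.4 CPM. Its mRNA fell by 0.99 while the footprint change was -0.17 (adjusted p = 0.17), and TE was higher by 0.82 ± 0.16 (adjusted p = 0.047). Without the libraries numbered 4 in both assays the adjusted TE p of XRN1 was 0.11, and 4 of the 27 fits kept the call. OGT, the enzyme that attaches O-GlcNAc sugars to proteins of nucleus and cytoplasm (ENSG00000147162, chromosome X, 71533104 to 71575892), showed a smaller shift of the same form. OGT mRNA was 321, 325, 307 and 299 CPM with LPS+Dex and 407, 422, 409 and 436 CPM with LPS, with no overlap. OGT footprints were 283, 291, 290, 250 and 261 CPM with LPS+Dex and 252, 248, 263, 237 and 221 CPM with LPS, with overlap. The TE change of OGT was 0.59 ± 0.11 (adjusted p = 0.047), kept in 6 of the 27 fits.

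MDM2 and FN3K had more mRNA and fewer footprints per mRNA. MDM2, the ubiquitin ligase that restrains the tumour suppressor p53 (ENSG00000135679, chromosome 12, 68808172 to 68850686), had mRNA of 118, 112, 113 and 106 CPM with LPS+Dex and 48.5, 35.2, 50 and 58.4 CPM with LPS. Its footprints were 64.9, 68.9, 61.9, 62.1 and 69.1 CPM with LPS+Dex and 48.9, 50.1, 52, 59.8 and 54.4 CPM with LPS. Neither assay overlapped, and the mRNA rise of 1.22 (adjusted p = 4.2e-05) was larger than the footprint rise of 0.30 (adjusted p = 0.012). The TE change of MDM2 was -0.92 ± 0.17 (adjusted p = 0.042), kept in 12 of the 27 fits. MDM2 is known to be read from a pair of promoters whose 5-prime leaders are translated unequally, and gene counts do not separate them. MDM2 also overlaps another protein-coding gene, whose symbol CPM is spelled like the unit, and reads of both genes may be mixed. FN3K, a kinase that helps remove sugars attached to protein amines (ENSG00000167363, chromosome 17, 82735615 to 82751196), had under 2 CPM in every library of the 2 groups. FN3K mRNA was 1.91, 1.58, 1.67 and 1.48 CPM with LPS+Dex and 0.795, 0.835, 0.637 and 0.645 CPM with LPS. Its footprints overlapped, at 0.68, 0.637, 0.663, 0.822 and 0.646 CPM against 1.11, 0.501, 0.718, 0.848 and 1.18 CPM. The TE change of FN3K was -1.54 ± 0.31 (adjusted p = 0.047), with an adjusted p of 0.11 without the libraries numbered 4.

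**Figure D2:**
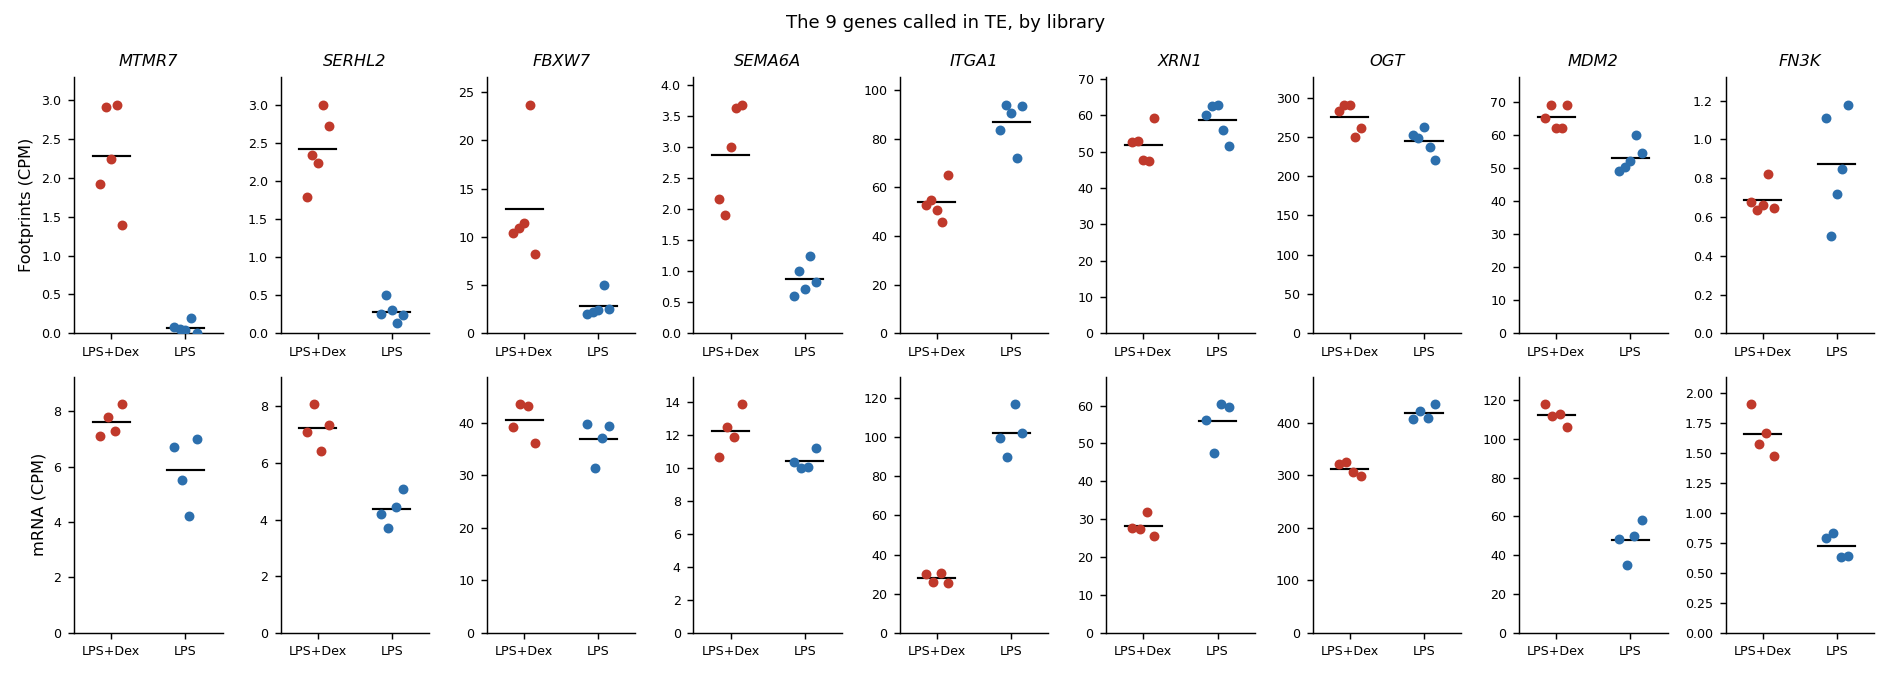
Footprints (top row) and mRNA (bottom row) in CPM of the 9 genes called in TE, with 1 point per library and a line at the mean, LPS+Dex left and LPS right. FBXW7, MTMR7, SERHL2 and SEMA6A separate in footprints by more than in mRNA, whereas ITGA1, XRN1, OGT, MDM2 and FN3K separate more in mRNA.

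Many more genes passed when replicate number was a term of the fit within each assay (a replicate block). This block takes up differences between replicate numbers in both assays, among them the distance of the footprint libraries numbered 4. The mRNA libraries were not shown to pair by number. With this block 82 genes passed in TE (0.687%), 55 higher and 27 lower, and all 9 genes above were among them. A block in footprints only, where equal numbers were seen to pair only the libraries numbered 4, gave 44 calls (0.368%). These were 25 higher and 19 lower, all among the 82. A block shared by both assays gave 10 (0.0837%, 7 higher and 3 lower). The median SE of a TE change was 0.156 with the block and 0.231 without it. All 82 had the same sign without the block and without the libraries numbered 4. These fits reuse all or most of the same libraries, so the equal sign is no separate support. Of the 82, 27 also passed in the fit without the libraries numbered 4, where 30 genes passed (0.251%). With the block and without footprint LPS replicate 1, 34 genes passed (0.285%), all of them among the 82. Of the 82, 57 were buffered, 16 exclusive and 9 intensified. Of the buffered genes 39 had higher TE and lower mRNA and 18 had lower TE and higher mRNA.

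A group of 18 genes passed with the block, with the block in footprints only, without the libraries numbered 4, and with the block but without footprint LPS replicate 1. They comprised FBXW7, MTMR7, SERHL2, SEMA6A, ITGA1, OGT and MDM2, together with MFGE8, AHNAK, ETV6, BTD, SATB1, FADS3, CMYA5, CSF2RB, TBC1D1, RNF213 and DDX60L, which did not pass in edgeR's fit of all libraries without a block. By DESeq2, AHNAK (adjusted p = 0.015), ETV6 (0.025), CMYA5 (0.0019) and CSF2RB (0.048) passed without one. MFGE8 is the bridging protein through which macrophages take up apoptotic cells. MFGE8 mRNA was 84.7, 94.3, 86.8 and 101 CPM with LPS+Dex and 14.7, 16.4, 15.9 and 15.5 CPM with LPS. MFGE8 footprints were 56, 52.7, 52.2, 132 and 55 CPM with LPS+Dex and 29.8, 29.2, 27.5, 70.9 and 29.7 CPM with LPS. Replicate 4 was the highest of both groups, and LPS replicate 4 lay above 4 of the 5 LPS+Dex libraries, while the other libraries separated. The mRNA rose by 2.55 and the footprints, fitted with the block, by 0.90, and the TE change was -1.65 ± 0.10 with the block (adjusted p = 2.5e-10). Without the block it was -1.65 ± 0.43 (adjusted p = 0.28).

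AHNAK, a giant scaffold protein under the plasma membrane, had mRNA of 2090, 2110, 1920 and 2000 CPM with LPS+Dex and 673, 678, 704 and 761 CPM with LPS. AHNAK footprints were 699, 696, 615, 1100 and 699 CPM with LPS+Dex and 478, 505, 506, 975 and 504 CPM with LPS. Replicate 4 was again the highest of each group, and LPS replicate 4 lay above 4 of the 5 LPS+Dex libraries. TE was lower by 1.14 ± 0.10 on the log2 scale with the block (adjusted p = 5e-07). In vehicle cells AHNAK footprints were 785 to 1360 CPM and its mRNA 1160 to 1410 CPM. ETV6, a transcriptional repressor of the ETS family, differed in footprints alone, with 9.68, 8.84, 11.1, 5.96 and 9.24 CPM with LPS+Dex against 23.1, 24.5, 24.9, 16.4 and 22.3 CPM with LPS. ETV6 mRNA overlapped, at 93.8, 99.3, 75.1 and 105 CPM with LPS+Dex and 101, 117, 104 and 105 CPM with LPS. The blocked TE change of ETV6 was -1.12 ± 0.13 (adjusted p = 4.8e-05).

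Other genes of this group had more footprints per mRNA. CSF2RB, the common beta chain of the GM-CSF receptor family, had mRNA of 25.9, 21.5, 25.8 and 23.6 CPM with LPS+Dex and 52.2, 40.6, 56.2 and 47.4 CPM with LPS. CSF2RB footprints overlapped, at 24.4, 21.3, 21.3, 44.2 and 23.5 CPM with LPS+Dex and 23.9, 22.8, 21.5, 35.1 and 26.6 CPM with LPS. The mRNA separated and the footprints did not, and the blocked TE change was 1.04 ± 0.15 (adjusted p = 0.00048). TBC1D1, a regulator of Rab GTPases in vesicle traffic, rose in both assays and more in footprints. Its footprints were 220, 207, 223, 163 and 237 CPM with LPS+Dex and 58.7, 59, 59.7, 41 and 63.5 CPM with LPS, and its mRNA 654, 625, 655 and 675 CPM against 270, 279, 264 and 281 CPM. The blocked TE change of TBC1D1 was 0.65 ± 0.08 (adjusted p = 0.00012).

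The remaining genes of this group included 2 linked to interferon. RNF213, a very large ubiquitin ligase induced by interferon, and DDX60L, an interferon-induced helicase-like protein, had blocked TE changes of 0.72 and 0.63. DDX60L mRNA was 182, 168, 178 and 199 CPM with LPS+Dex and 360, 353, 364 and 379 CPM with LPS. BTD, the biotin-recycling enzyme biotinidase, and FADS3, of the fatty acid desaturase family, had TE changes of -1.05 and -0.65 over mRNA rises of 1.04 and 1.08. SATB1, a chromatin organiser, fell further in footprints (-1.61) than in mRNA (-0.72). CMYA5, a protein best known from muscle, had a TE change of -1.38 and footprints of 2.16, 3.47, 3.15, 1.71 and 3.18 CPM with LPS+Dex and 6.62, 5.66, 2.65, 4.63 and 4.72 CPM with LPS, which overlapped. MTIF2, which starts translation in mitochondria, and IRGQ, of the immunity-related GTPase family, passed with the block (adjusted p = 0.007 and 0.00075) and not without the libraries numbered 4 (adjusted p = 0.054 and 0.068). Both were named after their values were seen.

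**Figure D3:**
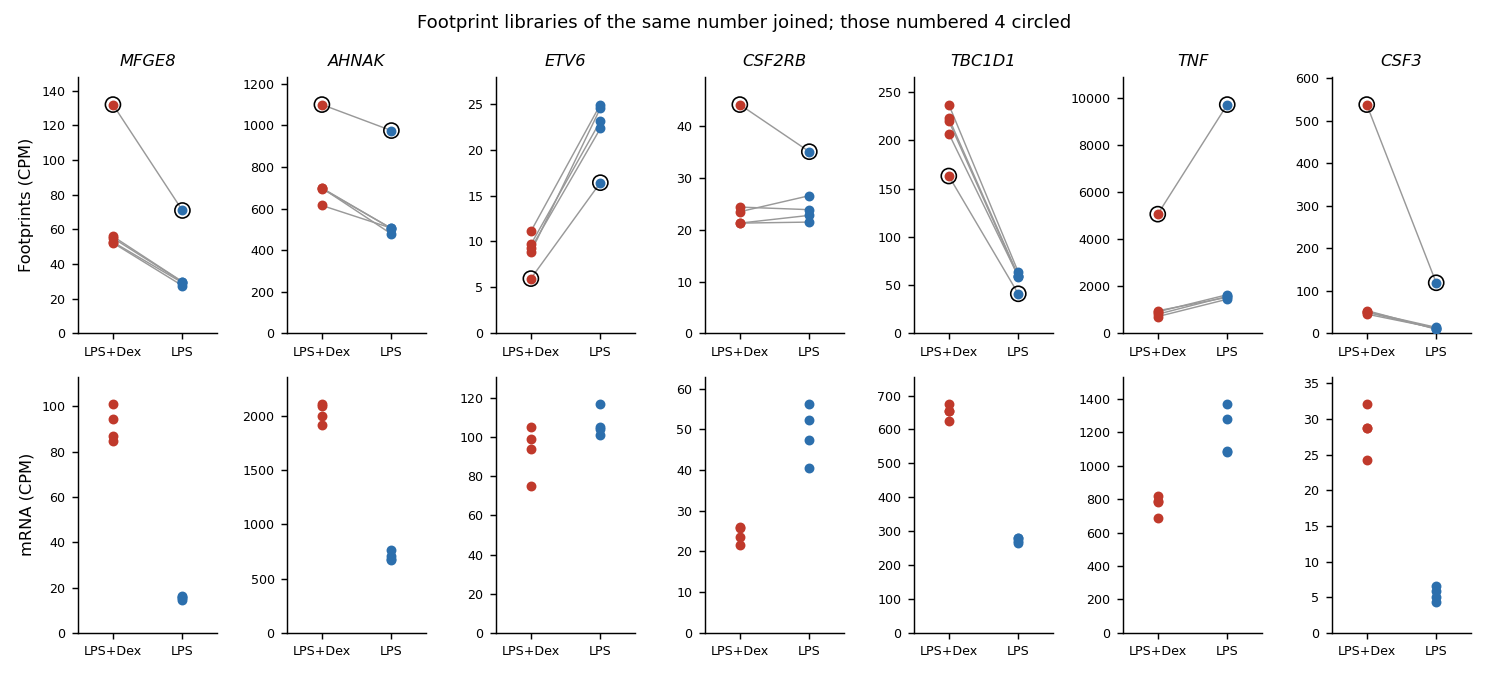
CPM of 5 genes called in TE with the replicate block (MFGE8, AHNAK, ETV6, CSF2RB and TBC1D1) and of the cytokine genes TNF and CSF3, footprints in the top row and mRNA in the bottom row, LPS+Dex left and LPS right. Lines join footprint libraries of the same number and circles mark those numbered 4, which lie apart from the others in both groups for these genes.

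Some lower calls made with the block were in muscle genes. The summed footprints of 19 heart muscle genes, listed after their values were seen, were 10.8, 9.4, 11.4, 26.9 and 13.1 CPM with LPS+Dex, and 282, 62.8, 19.7, 51.7 and 43.2 CPM with LPS. With vehicle the sum was 4.31 to 14.4 CPM. The 5 LPS libraries held more of it than every vehicle library, and 18 of the 19 genes were highest in LPS replicate 1 of all 15 footprint libraries, with MYH6 the exception. In mRNA the sums overlapped, at 28.9 to 41.4 CPM with LPS+Dex and 30.5 to 42.3 CPM with LPS. The largest part of these mRNA sums was MYBPC3, at 18.3 to 25.9 CPM with LPS+Dex and 17.6 to 26.4 CPM with LPS. MYH7 mRNA was at most 0.133 CPM in these groups, beside 103 CPM of MYH7 footprints in LPS replicate 1. TTN (titin), TCAP (its cap) and MYBPC3 (cardiac myosin-binding protein) passed as lower in TE with the block, at -1.82, -5.15 and -2.54 (adjusted p = 0.031, 0.0047 and 0.0046). When footprint LPS replicate 1 was also left out, these were -1.40, -3.65 and -1.81 (adjusted p = 0.046, 0.052 and 0.019). TTN footprints were 15.4, 15.2, 10.9, 35.8 and 18.4 CPM with LPS+Dex and 179, 99.8, 23.1, 82.3 and 46.9 CPM with LPS. The footprints of CMYA5, given above, were also highest in LPS replicate 1 of the LPS libraries, and its blocked call had an adjusted p of 0.046 without that library. The part of this material in these calls was not tested.

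Most classic targets of glucocorticoids rose in both assays, and none passed in TE without the block. FKBP5, a co-chaperone of the glucocorticoid receptor, had footprints of 2090, 2180, 2150, 1680 and 2180 CPM with LPS+Dex and 80.2, 75.9, 79.3, 58.1 and 155 CPM with LPS. FKBP5 mRNA was 1840, 1570, 1800 and 1440 CPM against 71.6, 53.1, 69.8 and 159 CPM. Both assays separated widely, with changes of 4.52 in footprints and 4.23 in mRNA and a TE change of 0.29 ± 0.39 (adjusted p = 0.95). TSC22D3, the leucine zipper protein GILZ, rose by 4.32 in footprints and 4.12 in mRNA, PER1, a clock repressor, by 3.01 and 2.87, and MT2A, a metallothionein, by 3.80 and 3.71. DUSP1, a phosphatase that inactivates MAP kinases, had changes of 2.84 and 2.52. Of 43 tested receptor targets 25 were higher and 2 lower in footprints, and 29 were higher and 5 lower in mRNA. Over all genes 9.18% were higher in footprints and 16.5% in mRNA. None of these 43 passed in TE by edgeR without the block or by DESeq2, and 2 had an unadjusted p under 0.05. Limma voom called 1 of the 43 higher and 1 lower. Their median change was 1.09 in footprints and 1.08 in mRNA, beside 0.02 and 0.01 over all genes. With the block SESN1, a sestrin that restrains mTOR signalling, passed with a TE change of 0.68 ± 0.16 (adjusted p = 0.047, 0.1 when footprint LPS replicate 1 was also left out, and 0.073 with the block in footprints only).

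Cytokine genes, which LPS switches on, were mostly lower with LPS+Dex, and none of those listed passed in TE. Over all genes 16.7% were lower in mRNA and 8.1% in footprints (15% with the block). Of 39 tested cytokines and chemokines 32 were lower and 2 higher in mRNA. In footprints 17 of these 39 were lower and 0 higher (32 lower and 2 higher with the block). Their median change was -1.26 in footprints and -1.31 in mRNA. No TE call was made among these 39 with the block or by DESeq2 either, and 0 had an unadjusted p under 0.05. IL36G, a cytokine outside this list named after its values were seen, passed as lower with the block (-1.46 ± 0.34, adjusted p = 0.04). With the block it also passed without footprint LPS replicate 1 (0.046). It did not pass without the block (0.59) or without the libraries numbered 4 (0.47). IL6 had footprints of 4.92, 4.66, 4.98, 7.46 and 4.67 CPM with LPS+Dex and 32.8, 33.8, 33, 51 and 27.3 CPM with LPS. IL6 fell by 2.74 in footprints and by 2.37 in mRNA, and its TE change was -0.37 ± 0.23 (adjusted p = 0.91). PTGS2, the inducible cyclooxygenase of prostaglandin synthesis, fell by 2.66 in footprints and by 3.19 in mRNA, with a TE change of 0.52 ± 0.59. Of 50 tested interferon response genes 47 were lower in mRNA and 21 in footprints. None passed in TE by edgeR or DESeq2, 1 had an unadjusted p under 0.05, and limma voom called 1 higher. RNF213 and DDX60L, given above, are outside this list. In footprints 42 of these 50 were lower with the block, and 50 without the libraries numbered 4 (beside 16% of all genes).

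For the secreted mediators TNF, CSF3 and IL1B the footprint libraries numbered 4 were far above the others and the SE of TE was wide. TNF footprints were 959, 916, 813, 5060 and 713 CPM with LPS+Dex and 1530, 1640, 1570, 9710 and 1450 CPM with LPS, with replicate 4 high in both groups. TNF mRNA was 818, 783, 690 and 787 CPM against 1080, 1090, 1280 and 1370 CPM. The TE change of TNF was -0.26 ± 0.77 (adjusted p = 0.98) and -0.24 ± 0.26 with the block (adjusted p = 0.70). TNF footprints did not pass as lower without the block (adjusted p = 0.43) and passed with it (adjusted p = 0.0011). CSF3, the granulocyte growth factor G-CSF, was an exception among the cytokines in its direction, with mRNA higher by 2.37. CSF3 footprints were 53.7, 45.3, 49.6, 538 and 50.9 CPM with LPS+Dex and 9.73, 12.2, 11, 119 and 14.1 CPM with LPS, and its TE change was -0.22 ± 1.00 (-0.27 ± 0.17 with the block). IL1B fell by 1.31 in footprints and by 1.66 in mRNA, with a TE change of 0.35 ± 0.48. Without footprint LPS replicate 4 alone the TE changes of TNF and CSF3 were 0.73 and 1.22, and without footprint LPS+Dex replicate 4 alone that of IL1B was -0.07, each of the other sign and none past the threshold. CXCL8, CXCL10, IFIT1, CD163, NR3C1, ZFP36, KLF9, NFKBIA, ATF4 and RPL3 had TE changes between -0.34 (ATF4) and 0.33 (KLF9), and none passed.

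Gene lists were described by counts and medians, and in edgeR's fit of all libraries without a block no list had more than 1 member called. Limma voom with sample quality weights, which called 373 genes higher (3.12%) and 236 lower (1.98%), called 47 ribosomal protein genes, 11 respiratory chain genes and 5 other TOP genes lower, and 5 mRNA decay factors and 4 adhesion molecules higher. DESeq2 called 2 adhesion molecules higher. The list medians of TE ran from -0.59 to 0.25, beside 0.04 over all genes. The lowest were those of the mitochondrially encoded genes (-0.59), the cytosolic ribosomal proteins (-0.37) and the nuclear-encoded respiratory chain genes (-0.25). The highest were those of adhesion molecules (0.25), iron handling (0.22) and macrophage markers (0.19). Each of the lowest lists had its highest summed mRNA of the LPS group in replicate 2. With mRNA LPS replicate 2 left out, their medians were -0.77, -0.47 and -0.33, in the order given, so these lists share a library difference in mRNA. Without the libraries numbered 4 the list medians of adhesion molecules and iron handling were 0.11 and 0, beside 0.01 over all genes. The called members of lists were XRN1 among the mRNA decay factors, ITGA1 among the adhesion molecules and MDM2 among genes with regulatory upstream reading frames. With the block ZFP36L1 (0.50), which binds AU-rich mRNA, TAPBP (0.39), of antigen loading, ITGAL (0.45), a leukocyte integrin chain, and the histone H2BC4 (0.99) also passed as higher. All 4 lost the call when footprint LPS replicate 1 was also left out (adjusted p = 0.097, 0.097, 0.09 and 0.064), in edgeR without the libraries numbered 4 (0.82, 0.28, 0.065 and 0.25) and with the block in footprints only (0.21, 0.067, 0.079 and 0.092). H2BC4 mRNA averaged 0.749 CPM in this poly(A) RNA, and most histone mRNAs lack a poly(A) tail. COL1A1, a collagen chain from the markers of other cell types, passed as lower with the block (-1.46, with an adjusted p of 0.097 when footprint LPS replicate 1 was also left out), and its mRNA was 21.1, 24.8, 25.5 and 25 CPM with LPS+Dex and 8.18, 9.35, 6.68 and 9.89 CPM with LPS.

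**Figure D4:**
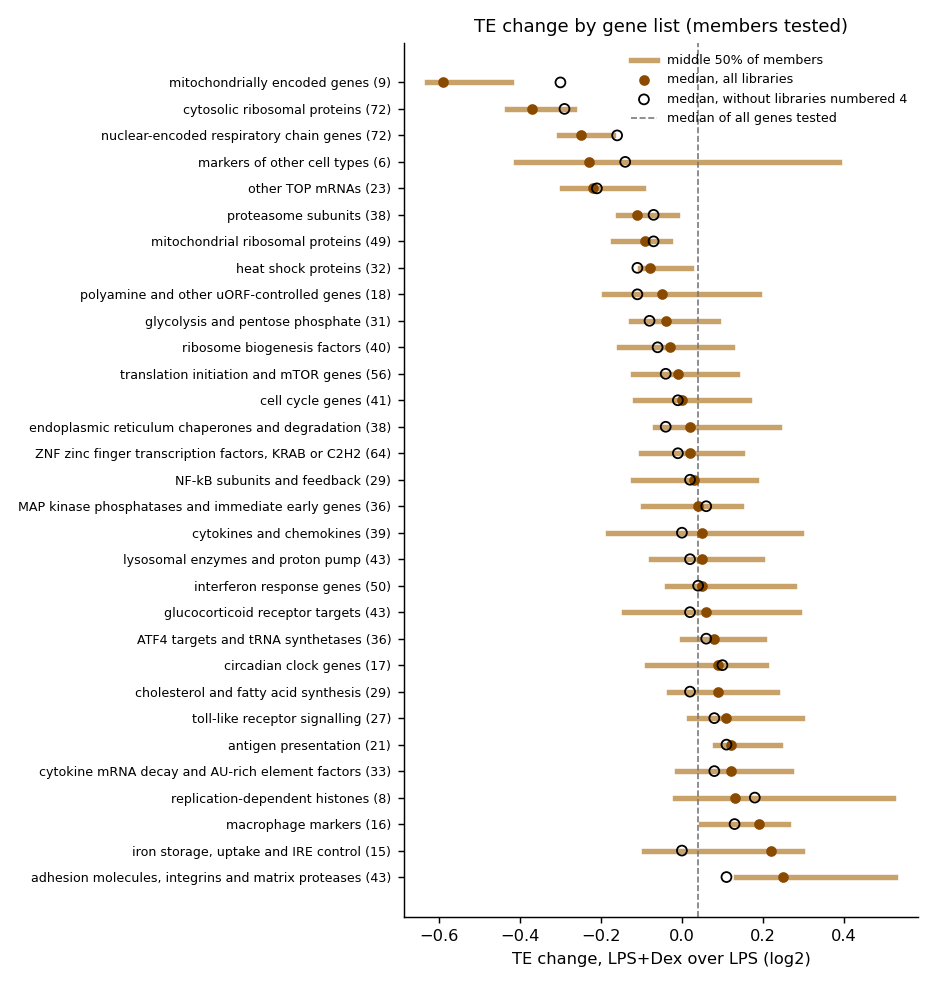
TE change (log2, LPS+Dex over LPS) of 31 gene lists, with the number of members tested in brackets. Filled points are medians over all libraries, bars span the middle 50% of members, open circles are medians without the libraries numbered 4, and the dashed line is the median of all 11944 genes (0.04). Ribosomal protein and other TOP lists lie below the line in both fits.

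Of all genes 8.1% passed as lower with LPS+Dex in footprints and 16.7% in mRNA. Footprints on translation machinery mRNAs passed as lower for 21 of 72 ribosomal protein genes and 7 of 23 other genes of this class. In mRNA 0 and 1 of these passed as lower. They share a 5-prime terminal oligopyrimidine (TOP) motif, a C at the start of the mRNA followed by a run of C and T, through which mTOR signalling is known to set their translation. Windows of 30 bases around the RefSeq starts (GRCh38.p14, gene strand) are shown for 8 of them that hold such a run, chosen from the low end of TE or from those that passed with the block, with the run in capitals.
RPLP1 (chr15:69452808-69452837, plus strand): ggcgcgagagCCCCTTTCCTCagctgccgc
RPS12 (chr6:132814558-132814587, plus strand): gcggatgaggCCTCTTTCCCTgccgccgcc
RPL31 (chr2:101002277-101002306, plus strand): atccttcgcgCTCTTCCTTTCCaacttgga
RPLP2 (chr11:809953-809982, plus strand): tgcgtcggcgCCTTCCTTTTCCTCCCTgtc
RPS21 (chr20:62387090-62387119, plus strand): tgactagctgCTTCCTTTCTCTCTCgcgcg
RPL12 (chr9:127451387-127451416, minus strand): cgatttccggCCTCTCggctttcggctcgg
EEF1A1 (chr6:73521013-73521042, minus strand): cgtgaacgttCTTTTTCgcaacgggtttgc
TPT1 (chr13:45341165-45341194, minus strand): gctgagtcggCCTTTTCCgcccgctccccc

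A run of this kind, a C within 5 bases of the start followed by at least 5 of C or T on the gene strand, was present in 45 of 57 ribosomal protein genes with a window (78.9%) and in 11 of 16 other TOP genes (68.8%). It was present in 1159 of all 9720 windows (11.9%). The 1103 genes that hold it outside the 2 lists had a median TE change of 0.03, and the genes without it 0.04. A match of letters is a description of these windows and not of the mRNA start used in THP-1 cells.

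Of 79 cytosolic ribosomal protein genes 72 were tested, and 70 of these had a TE value below 0, beside 43.5% of all genes. Their median TE change was -0.37, from -0.60 for RPLP1 to 0.04 for RPL41. None passed in TE by edgeR or DESeq2. On the lower side 29 had an unadjusted p under 0.05 (beside 2.07% of all genes), and limma voom called 47 of the 72 (beside 1.98%). RPL12 passed with the block (-0.58 ± 0.13, adjusted p = 0.036). It did not pass when footprint LPS replicate 1 was also left out (adjusted p = 0.064), with the block in footprints only (0.18) or without the libraries numbered 4 (0.5). The calls lay in footprints, where 21 of 72 passed as lower (beside 8.1% of all genes) and 0 as higher. With the block 48 passed as lower, beside 15% of all genes. The median footprint change was -0.24. In mRNA 0 of 72 passed in either direction, with a median of 0.12, so the median TE change holds a part from mRNA too. When the libraries numbered 4 were left out, the median TE change was -0.29, the median mRNA change was 0.03 and all 72 were below 0.

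The summed footprints of these 72 genes were 20600, 19500, 19900, 18600 and 19300 CPM with LPS+Dex and 23900, 23600, 24000, 21100 and 22900 CPM with LPS. The groups did not overlap. The summed mRNA was 33400, 37200, 31400 and 37900 CPM with LPS+Dex and 31500, 37800, 30100 and 27900 CPM with LPS, and these did overlap. In vehicle cells the sums were 14500 to 15800 CPM of footprints and 21000 to 32100 CPM of mRNA, so that the footprint sums with LPS+Dex lay between those with LPS and with vehicle. Ribosomal protein genes have many processed pseudogenes, and how reads with several matches were counted is not given in the sources used here.

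RPS12 and RPLP1, taken from the low end of TE in this list, are given as examples and not as separate support. RPS12, a small-subunit protein, had footprints of 47.9, 38.4, 42.5, 47.1 and 45.5 CPM with LPS+Dex and 55.5, 56.5, 61.8, 56 and 61.4 CPM with LPS. RPS12 mRNA was 398, 419, 335 and 429 CPM against 370, 427, 341 and 310 CPM. Its footprints separated and its mRNA did not, and its TE change of -0.52 ± 0.18 did not pass (adjusted p = 0.68). RPLP1, a protein of the ribosomal stalk, had footprints of 169, 172, 164, 136 and 191 CPM with LPS+Dex and 197, 220, 193, 192 and 257 CPM with LPS, which touched at 191 and 192 CPM. RPLP1 mRNA was 685, 834, 659 and 880 CPM against 640, 815, 584 and 522 CPM.

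Other TOP mRNAs, of elongation factors and related proteins, moved likewise. All 23 were tested and all 23 had a TE value below 0, with a median of -0.22 (-0.21 and 22 of 23 without the libraries numbered 4). None passed in TE by edgeR or DESeq2. On the lower side 5 had an unadjusted p under 0.05 (beside 2.07% of all genes), and limma voom called 5 (beside 1.98%). In footprints 7 of 23 passed as lower (beside 8.1% of all genes) and 0 as higher, and in mRNA 1 passed as lower (beside 16.7%). Their summed footprints were 14300, 13500, 13400, 17100 and 13200 CPM with LPS+Dex and 17700, 16900, 17200, 22500 and 17500 CPM with LPS. Replicate 4 was the highest of each group, and LPS+Dex replicate 4 lay above LPS replicate 2, the only pair of libraries that crossed. The summed mRNA was 15100, 15200, 14500 and 15200 CPM against 15600, 16500, 15900 and 15200 CPM.

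TPT1, the translationally controlled tumour protein, and EEF1G, a subunit of the elongation factor that reloads tRNA, passed with the block. TPT1 footprints were 243, 226, 232, 169 and 241 CPM with LPS+Dex and 300, 285, 293, 225 and 317 CPM with LPS, and its blocked TE change was -0.51 ± 0.10 (adjusted p = 0.013). EEF1G footprints were 135, 155, 138, 159 and 137 CPM with LPS+Dex and 185, 175, 189, 198 and 174 CPM with LPS, with no overlap, and its blocked TE change was -0.44 ± 0.10 (adjusted p = 0.031). When footprint LPS replicate 1 was also left out, the adjusted p was 0.028 for TPT1 and 0.064 for EEF1G, and with the block in footprints only it was 0.15 and 0.095. EEF1A1, which brings charged tRNA to the ribosome, had footprints of 212, 241, 207, 183 and 232 CPM with LPS+Dex and 314, 253, 274, 305 and 362 CPM with LPS, and a TE change of -0.33 ± 0.17 (adjusted p = 0.91).

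**Figure D5:**
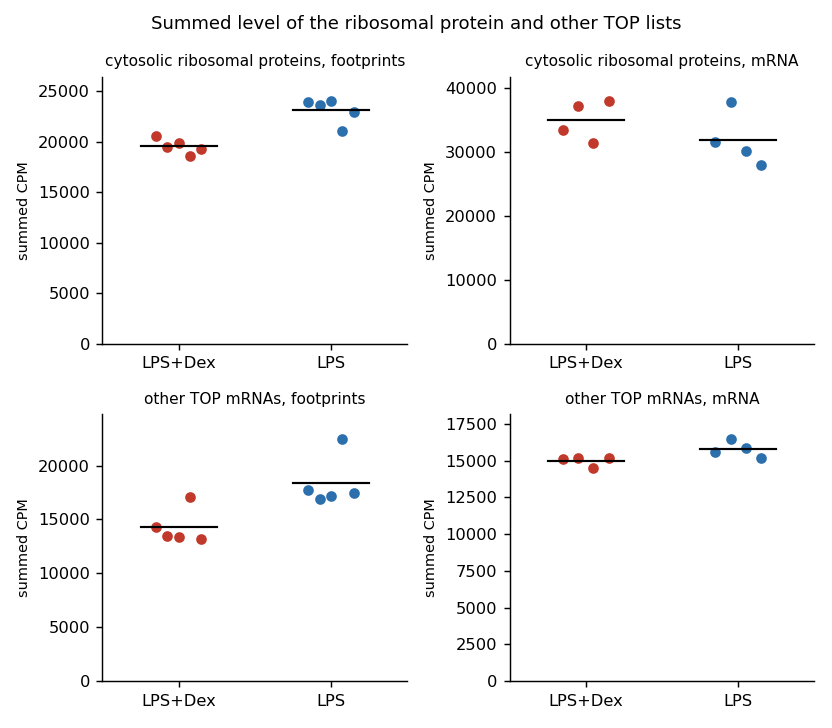
Summed level, in CPM, of 72 cytosolic ribosomal protein genes (top) and 23 other TOP genes (bottom) in footprints (left) and mRNA (right), with 1 point per library and a line at the mean, LPS+Dex left and LPS right in each panel. Ribosomal protein footprints separate, at 18600 to 20600 CPM with LPS+Dex and 21100 to 24000 CPM with LPS, while the mRNA sums overlap.

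Genes of mitochondrial respiration also had low list medians. Of 72 tested nuclear-encoded respiratory chain genes 67 had a TE value below 0, with a median of -0.25 (-0.16 without the libraries numbered 4). Their median change was -0.05 in footprints and 0.19 in mRNA. None passed by edgeR, with or without the block, or by DESeq2. On the lower side 8 had an unadjusted p under 0.05 (beside 2.07% of all genes), and limma voom called 11 (beside 1.98%). Their summed footprints overlapped, at 9060 to 9690 CPM with LPS+Dex and 9280 to 10000 CPM with LPS. The summed mRNA overlapped as well, at 9000 to 10300 CPM with LPS+Dex and 8000 to 9630 CPM with LPS. For the 9 tested mitochondrially encoded genes the median of -0.59 rests on few reads, with summed footprints of 8.96 to 15.1 CPM with LPS+Dex and 12.1 to 17.4 CPM with LPS. Their mRNA summed to 1560 to 2830 CPM with LPS+Dex and 1340 to 2100 CPM with LPS. This median was -0.30 without the libraries numbered 4.

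The precision of a TE change depended on the footprint level. In the fifth of genes with the fewest footprints, with a median of 22.7 counts per library, the median SE was 0.41, and 4 genes passed. In the fifth with the most, with a median of 3240 counts, it was 0.17 (0.11 with the block), and 1 gene passed (22 with the block).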

How the data were processed

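Ribosome profiling and poly(A) RNA-seq libraries of the same THP-1 cells were compared. Per the labels' protocols, lysates were digested with RNase, ribosomal RNA was removed and footprints were purified on a gel. The authors deposited raw read counts per Ensembl gene, 1 table per assay, with no scaling or pooling. The submitters' processing notes name Bowtie2 2.4.5, DESeq2 1.26.0, STAR 2.7.10a and featureCounts 2.0.1 and the build GRCh38/hg38. Not given in the sources used here are the counted feature, use of strand and handling of multi-mapped reads.

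Genes passing filterByExpr (minimum count 10, minimum total 15) in each assay were tested in edgeR 4.0.16 (R 4.3.3, limma 3.58.1). Counts of all 27 libraries were scaled together by TMM and fitted with 6 groups of assay and treatment. TE was the 2-sided quasi-likelihood F test of the footprint change minus the mRNA change. Footprints (15 libraries) and mRNA (12 libraries) were also fitted alone. Adjusted p-values are Benjamini-Hochberg over all 11944 genes, called under 0.05. Scaling makes every change relative to the average gene. CPM values come from the deposited counts, divided by TMM-scaled totals within an assay, and is not per gene length, so levels are compared within genes.

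Named genes are those called in TE, up to 12 a direction with mean levels of 5 CPM or more in each assay, up to 5 of each class, the called members of lists with the largest change, and a panel of well-known targets. Genes called with the block were taken the same way, and others are said to be chosen after their values were seen. The gene lists (31, from textbook knowledge) and the members were chosen with earlier results of these data known. RefSeq coordinates (GRCh38.p14) and start windows were matched by symbol.

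The labels do not say whether replicates are separate cultures, so p-values measure the spread between these samples, which may be technical. Deviations from the group means of equally numbered footprint libraries correlated above 0.1 in 5 of 5 pairs of LPS+Dex and LPS (r = 0.22 to 0.801), as did 12 of 20 pairs of different number. Without the libraries numbered 4 this held for 1 of 4 and 1 of 12 pairs. In mRNA it held for 2 of 4 pairs of the same number (r = -0.302 to 0.306) and for 4 of 12 pairs of different number (r = -0.445 to 0.521). The mRNA pair numbered 4 had the r of -0.302. Pairing of footprint libraries by number was thus seen for those numbered 4 (r = 0.801) and not shown for the others. The fit with replicate number as a block is given beside the results it changes. The block within each assay also enters the mRNA libraries, whose numbers were not shown to pair them. Alternatives were the block in 3 forms, other scalings (RLE, TMM within an assay), other filters, DESeq2 1.42.0, limma voom with sample quality weights, the 18 LPS+Dex and LPS libraries alone, and leaving out libraries singly or those numbered 4. The block in footprints only, leaving out only the footprint libraries numbered 4, and the 2 fits that join the block with left-out libraries were chosen after seeing the data. The test without a block was also run on simulated counts, drawn independently for each library with no effect of replicate number. That run does not bear on the calls that the block adds.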

Additional observations from a re-analysis of the deposited data

Results flagged for a closer look

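Single libraries stood apart from the others of their group in 26 of 116 groups examined (29 genes, in both treatments and assays). With the summed heart muscle transcripts, listed after their values were seen, this was 28 of 120. Chance flags about 1 in 20 groups, but the genes share their libraries, so these groups are not independent. Of the 26 gene values 23 were in footprint libraries numbered 4. With LPS+Dex, footprint replicate 4 had the highest level of FBXW7 (23.7 CPM, others 8.2 to 11.4), FN3K (0.822, others 0.637 to 0.68), DUSP1 (1610, others 442 to 558), ZFP36 (143, others 84.1 to 92.5) and CD163 (666, others 202 to 224). It also had the highest level of the mediators IL6 (7.46 CPM, others 4.66 to 4.98), TNF (5060, others 713 to 959), IL1B (32500, others 11300 to 12700), CXCL8 (30100, others 6070 to 7640), PTGS2 (679, others 158 to 223) and CSF3 (538, others 45.3 to 53.7). It had the lowest level of FKBP5 (1680 CPM, others 2090 to 2180).

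With LPS, footprint replicate 4 had the highest level of FBXW7 (4.96 CPM, others 2.01 to 2.48), DUSP1 (186, others 72.9 to 83.8), PER1 (48.8, others 20.9 to 27.5) and CD163 (291, others 90.6 to 122). The same held for IL6 (51 CPM, others 27.3 to 33.8), TNF (9710, others 1450 to 1640), IL1B (61800, others 28900 to 36600), CXCL8 (53300, others 14000 to 18800), PTGS2 (4100, others 1100 to 1280) and CSF3 (119, others 9.73 to 14.1). CXCL10 was lowest there (128 CPM, others 267 to 289).

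Outside the libraries numbered 4, FKBP5 footprints were highest in LPS replicate 5 (155 CPM, others 58.1 to 80.2), IL1B mRNA was highest in LPS replicate 3 (17400, others 14600 to 14800), and NFKBIA footprints were lowest in LPS+Dex replicate 2 (2050, others 2230 to 2280). The summed footprints of heart muscle transcripts were highest in LPS+Dex replicate 4 (26.9 CPM, others 9.4 to 13.1) and in LPS replicate 1 (282 CPM, others 19.7 to 62.8). What sets these libraries apart was not tested.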

How the results depend on the processing

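The counts of TE calls depended on how the spread between footprint libraries was treated. Of 2861 TE changes of named genes (70 genes under 41 other settings) 2505 kept their direction and side of the threshold. A further 205 newly passed, 121 no longer passed and 30 changed sign. These were FKBP5 (-0.29), TSC22D3 (-0.14) and IFIT1 (0.06) without the libraries numbered 4, the same genes with the block added (-0.24, -0.13 and 0.06), MT2A (0) and CXCL10 (-0.01) without only the footprint libraries numbered 4, IFIT1 with the shared block (0.01), with the block without footprint LPS replicate 1 (0.12) and by voom (0.01), and CXCL8 by voom (-0.01). Over the fits without 1 library the TE change crossed 0 for FKBP5 (-0.16 to 0.56), TSC22D3 (-0.03 to 0.34), DUSP1 (-0.21 to 0.62), MT2A (-0.14 to 0.22), CD163 (-0.79 to 0.12), TNF (-1.24 to 0.73), IL1B (-0.07 to 0.54), CXCL8 (-0.48 to 0.72), CXCL10 (-0.1 to 0.22), PTGS2 (-0.09 to 1.05), CSF3 (-1.75 to 1.22), IFIT1 (-0.16 to 0.1) and GLDN (-1.9 to 0.1). GLDN was among the genes called with the block (-0.89, adjusted p = 0.028) and did not pass without it (0.94). With the replicate block within each assay TE gave 55 higher and 27 lower calls, 2775 forwarded, 16 exclusive, 57 buffered and 9 intensified genes, and 3747 footprint calls. With a block shared by both assays there were 7 higher and 3 lower calls, 2799 forwarded genes and 3747 footprint calls, and with a block in footprints only 25 higher and 19 lower calls, 2593 forwarded, 10 exclusive, 28 buffered and 6 intensified genes, and 3747 footprint calls. Without the libraries numbered 4 there were 17 higher and 13 lower calls, 5 exclusive, 21 buffered and 4 intensified genes, 3822 footprint calls, and list medians of -0.29 (ribosomal proteins) and -0.16 (respiratory chain). Without only the footprint libraries numbered 4 there were 28 higher and 23 lower calls, 2633 forwarded, 12 exclusive, 33 buffered and 6 intensified genes, and 3822 footprint calls. The block without the libraries numbered 4 gave 35 higher and 28 lower calls, 2718 forwarded, 11 exclusive, 46 buffered and 6 intensified genes, 3970 footprint calls, and list medians of -0.29 and -0.16. The block without footprint LPS replicate 1 gave 19 higher and 15 lower calls, 2475 forwarded, 7 exclusive, 22 buffered and 5 intensified genes, and 3157 footprint calls. DESeq2 gave 16 higher and 7 lower calls, 7 exclusive and 15 buffered genes. Limma voom with sample quality weights gave 373 higher and 236 lower calls, 3053 forwarded, 147 exclusive, 386 buffered and 65 intensified genes, 4190 footprint calls and 6117 mRNA calls. The 18 libraries of the 2 groups gave 1 lower call, TMM within each assay 1 lower call and 2 buffered genes, and a filter of 1 count in each assay 4 higher and 0 lower calls and 0 buffered genes. At a mean of 5 CPM in both assays, which tests fewer genes, there were 2 higher calls and 1 lower, 1 exclusive, 2 buffered and 0 intensified genes. The respiratory chain median was -0.27 with RLE scaling and with DESeq2. Leaving out each library in turn gave 4 to 8 higher and 0 to 6 lower calls, 1434 to 1827 forwarded, 3 to 4 exclusive, 0 to 9 buffered and 1 intensified gene, 1739 to 2339 footprint and 3171 to 4388 mRNA calls. In the same fits the list medians were -0.47 to -0.31 for ribosomal proteins, -0.27 to -0.19 for other TOP mRNAs, -0.33 to -0.21 for the respiratory chain and -0.77 to -0.39 for mitochondrially encoded genes. The 9 buffered genes and 6 lower calls came without footprint LPS+Dex replicate 4, and no lower call remained without any 1 of footprint LPS+Dex replicates 1, 2, 3 and 5, LPS replicates 4 and 5 and vehicle replicates 3 and 5, or of mRNA LPS replicates 1, 2 and 3 and LPS+Dex replicates 1, 2, 3 and 4. The median of mitochondrially encoded genes could not be given at a mean of 5 CPM. Apart from the removal of libraries and genes, the cause of these shifts was not tested.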

Other observations

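The TE change was also read against the TE of vehicle-treated cells, taken from the vehicle libraries, which are not part of the compared groups. Genes were put into 5 equal groups from the lowest to the highest vehicle TE. In this order the median TE change with LPS+Dex over LPS was -0.05, 0.01, 0.03, 0.05 and 0.16 on the log2 scale. Leaving out the libraries numbered 4 gave medians of -0.03, 0, 0, 0.01 and 0.07. The genes of a group share their libraries and scaling, and no test was made.

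The vehicle libraries also give the level without LPS for 3 genes called with the block, chosen after their values were seen. ETV6 had footprints of 31.7 to 38.3 CPM in 4 vehicle libraries and 15.9 CPM in replicate 4, at mRNA levels of 82.4 to 120 CPM. IRGQ had vehicle footprints of 198 to 243 CPM and mRNA of 80.9 to 106 CPM, and MDM2 had vehicle footprints of 17.6 to 22.4 CPM and mRNA of 17.6 to 28.1 CPM.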
